A study of Mus musculus with 4 samples.

Results

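The expression of 10 genes that are known as direct targets of the glucocorticoid receptor (GR) in many tissues was followed in mouse neuroblastoma cells. They were chosen by name and are Fkbp5, Sgk1, Tsc22d3, Klf9, Zbtb16, Dusp1, Errfi1, Ddit4, Cdkn1c and Mt2. All 10 are among the 22667 genes of the deposited expression table. Neuro-2a (N2a) cells received siRNA with no target (siControl) or siRNA that depletes Arglu1 (siArglu1) for 48 h. They were then treated for 4 h with ethanol vehicle (Veh) or with dexamethasone (Dex), a potent synthetic agonist of GR, at 100 nM. Arglu1 encodes a coactivator of GR that also regulates splicing. The 4 groups, each siRNA with Veh and with Dex, are all of the same transformed line. RNA of 3 cultures was pooled in each group, so that a group is 1 library and no pair of groups has replicates of its own.

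GR is held in the cytoplasm by HSP90 and its co-chaperones. When a glucocorticoid binds, the receptor moves to the nucleus and occupies palindromic response elements, where coactivators join it and transcription of nearby genes rises within hours. The genes followed here include a brake on the receptor itself (Fkbp5), a kinase of ion transport and cell survival (Sgk1), anti-inflammatory mediators (Tsc22d3, Dusp1), transcription factors (Klf9, Zbtb16), inhibitors of growth signalling and of the cell cycle (Errfi1, Ddit4, Cdkn1c) and a metal-binding protein (Mt2).

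The RNA of Fkbp5, Sgk1 and Klf9, and by less that of Ddit4, was called higher with Dex by an edgeR model with 1 Dex term. The model spans all 4 libraries and has no replicates within a group. For Klf9 the call was lost with DESeq2 on the same model (adjusted p of 0.878). Tsc22d3 and Errfi1 differed little, Dusp1 was not higher, the few reads of Cdkn1c and Mt2 left their direction undecided, and Zbtb16 was all but absent. No member reached a log2 ratio of 1, which is a doubling, and the Dex ratio of no member differed by that much between siControl and siArglu1. In the siArglu1 libraries the levels of Klf9, Ddit4 and Dusp1 were lower than in siControl, with and without Dex.

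The libraries held between 66074574 and 86541444 reads on genes. Arglu1 itself was at 26.4% of siControl without and 22.5% with Dex, and Nr3c1, which encodes GR, was at 80.3% and 93.0%. The 11 neural and sympathetic markers reported stood at a summed 1331 to 1793 cRPKM (a level the authors corrected for library size and for the mappable length of each transcript), with Phox2a and Hand2 high and Nefl at no more than 4 reads in any library. The sum was higher in siArglu1 than in siControl, but the markers did not all move together. Of the 10 with enough reads, 8 had a log2 ratio of siArglu1 over siControl above 0 in vehicle. The 2 below 0 were Th (-1.26) and Map2 (-0.66). In Dex 7 were above 0 and 3 below. Markers of fibroblasts, leukocytes, astrocytes, endothelium and epithelium summed to at most 1.15 cRPKM for any of these cell types. Their part in the results was not tested. Fewer cells of a state and less RNA per cell cannot be told apart in bulk RNA. The log2 ratio for Dex ran with mappable length across 12484 genes, which share their libraries (Spearman's rho of -0.16 in siControl and 0.54 in siArglu1), as did that for knockdown (-0.40 in vehicle and -0.23 in Dex). Its part in the members' ratios was not tested beyond the values given with that trend removed.

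For 8 of the 10 members, RefSeq promoters were at hand, 16 in all (build GRCm38.p6), of which the 250 bases before each start site were searched on both strands. The complete palindrome of GR (the half-site AGAACA, 3 bases of any kind and its reverse complement) was found in 3 of 32536 distinct mouse promoter windows (0.00922%), and 1 of the 3 was a promoter of Sgk1, with the letters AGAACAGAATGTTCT. A match of letters is a description and does not show that GR binds there. The Sgk1 stretch is shown because the palindrome lies in it. It is the stretch chr10:21993640-21993889 on the plus strand, and in GENCODE M21 it lies within introns of longer Sgk1 transcripts, directly before the start site of a shorter one. Capitals mark both arms of the palindrome, which begins 189 bases before the start, and a further half-site, AGAACA or its reverse complement, 242 bases before it. The half-site alone is found in 16% of mouse promoters. Besides this stretch it was present in windows of other Sgk1 start sites and in one of Tsc22d3, 185 bases before the start. It was absent from the windows of Fkbp5, Klf9, Ddit4, Dusp1, Errfi1 and Mt2. Sequence outside these windows was not searched, so absence from a window does not show that a gene lacks such sites.
Sgk1 promoter: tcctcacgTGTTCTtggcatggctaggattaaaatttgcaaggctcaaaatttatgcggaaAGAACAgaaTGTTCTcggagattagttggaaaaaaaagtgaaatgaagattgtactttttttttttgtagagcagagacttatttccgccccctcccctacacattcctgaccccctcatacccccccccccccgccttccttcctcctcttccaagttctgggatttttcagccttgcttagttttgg

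Stretches of Dusp1, which was not higher after Dex, and of Mt2 are shown for matches to site patterns of other factors. For Dusp1 the stretch is chr17:26508520-26508722 on the minus strand, without the bases that an annotated exon of Dusp1 covers. Capitals mark TGACG, the half-site of the cAMP-responsive factor CREB, and the complete site TGACGTCA, 143 bases before the RefSeq start. TGACG was found in 17.9% and TGACGTCA in 1.56% of the mouse promoters, and each complete site contains overlapping half-sites. A second start site of Errfi1 also had TGACGTCA, 51 bases before it. For Mt2 the stretch is chr8:94172368-94172617 on the plus strand, which overlaps an exon of Gm45774, a noncoding transcript of the opposite strand. Its capitals mark TGCNCNC (N is any base), a pattern looser than the core of the metal response element, which the factor MTF1 binds. The pattern matched 5 times, and a match need not be such a core. This short, loose pattern was found in 44.7% of mouse promoters.
Dusp1 promoter: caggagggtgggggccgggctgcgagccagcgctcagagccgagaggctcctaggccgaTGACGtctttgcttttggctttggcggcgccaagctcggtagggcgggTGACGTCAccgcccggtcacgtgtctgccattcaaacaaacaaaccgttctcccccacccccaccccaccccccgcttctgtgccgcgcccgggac
Mt2 promoter: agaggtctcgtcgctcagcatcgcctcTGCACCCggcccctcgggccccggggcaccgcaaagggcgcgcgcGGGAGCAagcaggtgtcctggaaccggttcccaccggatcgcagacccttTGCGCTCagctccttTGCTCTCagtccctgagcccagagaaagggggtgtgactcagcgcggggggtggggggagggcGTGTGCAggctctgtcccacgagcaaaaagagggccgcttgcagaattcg

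Fkbp5 (ENSMUSG00000024222; GRCm38 chr17:28399094-28517527) encodes a co-chaperone of HSP90 that lowers the affinity of GR for its hormone, in a negative feedback loop. It had 6024 reads with Veh and 10307 with Dex in siControl, and 6234 with Veh and 13232 with Dex in siArglu1. Its levels were 26.1 cRPKM with Veh and 41.4 with Dex in siControl, and 26.8 and 43.8 in siArglu1. Both Dex libraries were thus above both vehicle libraries, and the vehicle libraries overlapped within their 95% counting intervals. After scaling with TMM factors, the log2 ratio of Dex over Veh was 0.675 in siControl (interval 0.63 to 0.72) and 0.675 in siArglu1 (0.63 to 0.72). These are exact intervals of a ratio of counts, which cover counting error only and not the variation between cultures. The difference between the ratios was -0.00017 on the log2 scale (interval -0.06 to 0.06), and its sign changed with the scaling.

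Sgk1 (ENSMUSG00000019970; GRCm38 chr10:21882184-21999903) encodes a kinase that promotes sodium transport and survival downstream of corticosteroids and insulin. It had 5110 reads with Veh and 8714 with Dex in siControl, and 5716 with Veh and 12907 with Dex in siArglu1. In cRPKM these were 25.4, 40.2, 28.2 and 49.0, in the same order. The lowest library was siControl Veh and the highest siArglu1 Dex, and no pair of libraries overlapped in its counting intervals. On the log2 scale, Dex over Veh came to 0.67 in siControl (0.62 to 0.72) and 0.76 in siArglu1 (0.72 to 0.81). The ratio was higher in siArglu1 by 0.09 (0.03 to 0.16). In siArglu1 the level was higher than in siControl both in vehicle, by a log2 ratio of 0.18 (0.13 to 0.24), and in Dex, by 0.28 (0.24 to 0.32).

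Klf9 (ENSMUSG00000033863; GRCm38 chr19:23141226-23168134) encodes a zinc finger transcription factor that acts downstream of glucocorticoid and thyroid hormone, including in neurons. Its reads were few. In siControl 213 were counted with Veh and 336 with Dex, and in siArglu1 99 with Veh and 240 with Dex. The levels were 1 cRPKM with Veh and 1.47 with Dex in siControl, and 0.46 and 0.86 in siArglu1. The level in siArglu1 with Dex was near that in siControl with Veh, and their counting intervals overlapped. Dex over Veh gave a log2 ratio of 0.56 in siControl (0.31 to 0.81) and 0.86 in siArglu1 (0.52 to 1.22). The ratios differed by 0.31, with an interval that included 0 (-0.12 to 0.75). Against siControl, the level in siArglu1 was lower by a log2 ratio of -1.08 in vehicle (-1.44 to -0.73) and of -0.77 in Dex (-1.02 to -0.53).

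Ddit4 (ENSMUSG00000020108; GRCm38 chr10:59949669-59951834) encodes REDD1, an inhibitor of mTORC1 that stress and glucocorticoids induce. It was the most abundant member, with 17035 reads with Veh and 23101 with Dex in siControl, and 9906 with Veh and 16902 with Dex in siArglu1. Its levels were 157.6 cRPKM with Veh and 198.2 with Dex in siControl, and 90.9 and 119.4 in siArglu1. Both siArglu1 libraries lay below both siControl libraries, and no pair overlapped in its counting intervals. The log2 ratio of Dex over Veh was 0.34 in siControl (0.31 to 0.37) and 0.36 in siArglu1 (0.32 to 0.40), and the ratios differed by 0.02 (-0.03 to 0.07). The log2 ratio of siArglu1 over siControl was -0.76 in vehicle (-0.80 to -0.72) and -0.74 in Dex (-0.77 to -0.71).

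**Figure D1:**
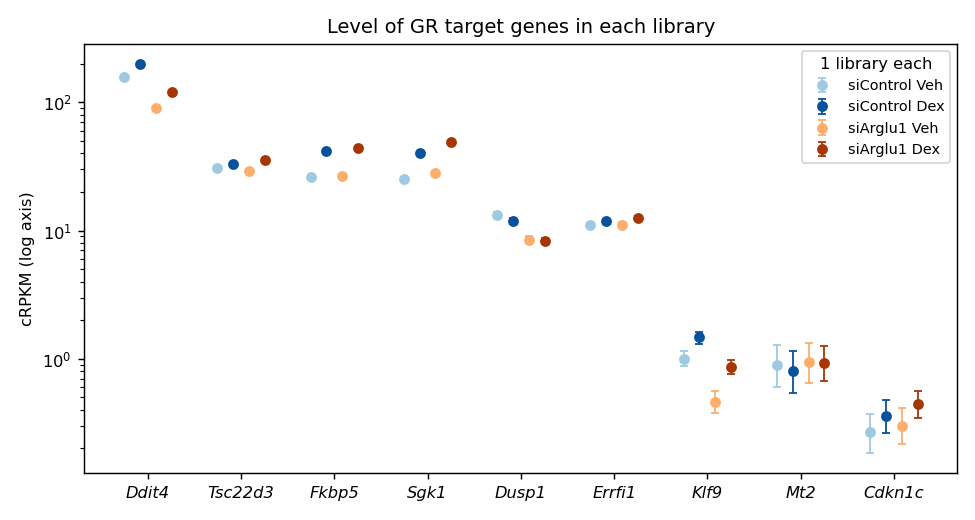
Level of the 9 members that were compared, in cRPKM on a log axis, with 1 point per library and bars for the 95% counting interval. Fkbp5 and Sgk1 sit higher in both Dex libraries, Ddit4, Dusp1 and Klf9 sit lower in siArglu1 than in siControl under the same treatment, and Cdkn1c and Mt2 have wide, overlapping bars.

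Tsc22d3 (ENSMUSG00000031431; GRCm38 chrX:140539528-140600659) encodes GILZ, a leucine zipper protein that carries part of the anti-inflammatory action of glucocorticoids. It had 3061 reads with Veh and 3520 with Dex in siControl, and 2898 with Veh and 4596 with Dex in siArglu1. The corresponding levels were 30.8, 32.9, 29.0 and 35.3 cRPKM. The 4 libraries thus lay close together, with siArglu1 Dex at the top. On the log2 scale, Dex over Veh came to 0.10 in siControl (0.03 to 0.17) and 0.25 in siArglu1 (0.19 to 0.32), and the ratios differed by 0.15 (0.06 to 0.25). With the trend on length removed, the ratio in siArglu1 was 0.35.

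Errfi1 (ENSMUSG00000028967; GRCm38 chr4:150853919-150868892) encodes MIG6, an inhibitor of the EGF receptor. It had 2175 reads with Veh and 2538 with Dex in siControl, and 2215 with Veh and 3240 with Dex in siArglu1, or 11.02, 11.93, 11.14 and 12.53 cRPKM. The Dex libraries were slightly above the vehicle libraries in both states. Dex over Veh gave a log2 ratio of 0.12 in siControl (0.04 to 0.21) and 0.14 in siArglu1 (0.06 to 0.22).

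Dusp1 (ENSMUSG00000024190; GRCm38 chr17:26505590-26562128) encodes a phosphatase that switches off MAP kinases. It had 1703 reads with Veh and 1650 with Dex in siControl, and 1098 with Veh and 1383 with Dex in siArglu1. These corresponded to 13.3, 11.9, 8.49 and 8.23 cRPKM. Both siControl libraries were above both siArglu1 libraries, and the Dex libraries were not above their vehicle libraries. The log2 ratio of Dex over Veh was -0.15 in siControl (-0.24 to -0.05) and -0.08 in siArglu1 (-0.19 to 0.04). The log2 ratio of siArglu1 over siControl was -0.61 in vehicle (-0.72 to -0.50) and -0.54 in Dex (-0.65 to -0.44).

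Cdkn1c (ENSMUSG00000037664; GRCm38 chr7:143458339-143461050) encodes p57, an imprinted inhibitor of cyclin-dependent kinases. It had 33 reads with Veh and 48 with Dex in siControl, and 38 with Veh and 72 with Dex in siArglu1, or between 0.27 and 0.44 cRPKM. The Dex libraries were the higher ones, but at this depth a difference was not detectable. On the log2 scale, Dex over Veh came to 0.43 in siControl (-0.23 to 1.13) and 0.50 in siArglu1 (-0.08 to 1.12).

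Mt2 (ENSMUSG00000031762; GRCm38 chr8:94172664-94173568) encodes metallothionein 2, which binds zinc and copper and is induced by metals as well as by glucocorticoids. Only 30 reads with Veh and 29 with Dex were counted in siControl, and 32 with Veh and 41 with Dex in siArglu1, between 0.80 and 0.95 cRPKM. All 4 counting intervals overlapped. Dex over Veh gave a log2 ratio of -0.14 in siControl (-0.94 to 0.64) and -0.05 in siArglu1 (-0.76 to 0.66), so that a doubling lay outside either interval. The ratio in siArglu1 was 0.14 with the trend on length removed. Mt2 overlaps Gm45774 on the opposite strand, and because the library kit does not mark strand, their reads cannot be told apart.

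Zbtb16 (ENSMUSG00000066687; GRCm38 chr9:48654297-48836222) encodes PLZF, a transcriptional repressor that glucocorticoids and progestins induce strongly in many cells. No read was counted in siControl Veh or siControl Dex, and 1 read in each siArglu1 library. A floor of 3 reads is 0.0454 CPM with Veh and 0.0421 with Dex in siControl, and 0.0451 and 0.0347 in siArglu1, so the gene lay below these levels and no ratio is given. It was left out by the minimum of 75 reads over the 4 libraries, which the other 9 members and 12497 genes in all passed.

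With these ratios, 0 of the 9 members compared were higher by 1 on the log2 scale in siControl, where 0.32% of all genes were, and 0 in siArglu1, against 0.328% of all genes. Likewise 0 were lower by 1 in siControl (0.144% of all genes) or in siArglu1 (0.064%). Fkbp5, Sgk1 and Klf9 passed a log2 ratio of 0.5 in siControl, where 1.59% of all genes did. In siArglu1 the same 3 genes and Cdkn1c passed it, against 2.7% of all genes, and in both states together 0.552% of all genes did. In the siControl pair Fkbp5 ranked 112 of 12497 genes, Sgk1 115, Klf9 165 and Ddit4 367. In the siArglu1 pair Klf9 ranked 75, Sgk1 107, Fkbp5 157 and Ddit4 727. Among the 11056 genes with at least 400 reads, Fkbp5 ranked 30 and Sgk1 31 in siControl. The median log2 ratio of the 9 members was 0.34 in siControl, beside -0.0034 over all genes compared, and 0.36 in siArglu1, beside -0.00079.

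An interval that excluded 0 on the higher side was found for 6 members in siControl (13.5% of all genes) and for 6 in siArglu1 (26.2%). They were Fkbp5, Sgk1, Klf9, Ddit4, Errfi1 and Tsc22d3 each time, and 4.57% of all genes were above 0 in both states. Dusp1 was the 1 member with an interval below 0 in siControl (13.8% of all genes), and no member was below 0 in siArglu1 (26.6%).

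**Figure D2:**
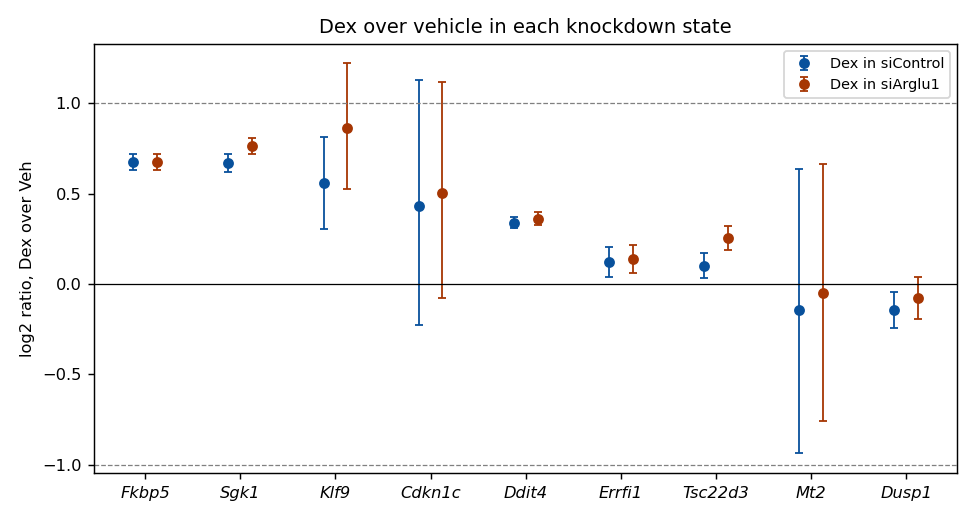
Log2 ratio of Dex over Veh of the 9 members in siControl and in siArglu1, with 95% counting intervals of the ratio and dashed lines at 1 and -1. Fkbp5, Sgk1, Klf9, Ddit4, Errfi1 and Tsc22d3 have both intervals above 0, and no point reaches 1.

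**Figure D3:**
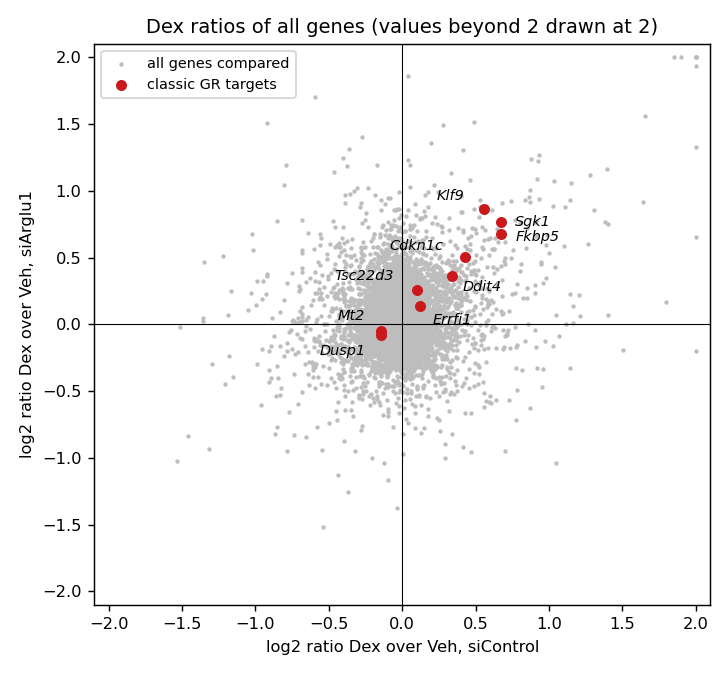
Log2 ratio of Dex over Veh of every gene compared, in siControl on the horizontal axis and in siArglu1 on the vertical axis, with the 9 members in red and values beyond 2 drawn at 2. Fkbp5, Sgk1 and Klf9 lie in the upper right, away from the bulk of genes, and Dusp1 and Mt2 lie within it.

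A model over all 4 libraries with a term for knockdown and a term for Dex has 1 residual degree of freedom, and assumes that Dex acts alike in both states. No group has replicate libraries, so its p-values do not measure the variation between cultures. By edgeR's quasi-likelihood test on this model, 4 members rose with Dex at a Benjamini-Hochberg adjusted p of 0.05 over all genes, where 0.992% of all genes did, and 0 fell (0.048%). Their edgeR adjusted p was 7.85e-14 for Sgk1, 3.02e-12 for Fkbp5, 0.000481 for Klf9 and 0.00731 for Ddit4. The fitted log2 change was 0.72 for Sgk1, 0.68 for Fkbp5, 0.69 for Klf9 and 0.35 for Ddit4, and each was higher in both Dex libraries than in the vehicle library of its state. For Tsc22d3 the edgeR adjusted p was 0.898. With DESeq2 on the same model, Sgk1, Fkbp5 and Ddit4 passed, against 0.408% of all genes, and Klf9 did not (adjusted p of 0.878).

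No member's Dex ratio differed by 1 or more between siArglu1 and siControl, where 0.64% of all genes were higher and 0.352% lower by that much. An interval of the difference that excluded 0 was found for Sgk1 and Tsc22d3, both higher in siArglu1, beside 23.9% of all genes. The median difference of the members was 0.07, and over all genes it was 0.0089. For Fkbp5 and Ddit4 the interval of the difference was narrow and included 0. With the trend on length removed, the difference was 0.12 for Ddit4 and 0.26 for Tsc22d3. For Klf9, Cdkn1c and Mt2 the intervals were wide. In these genes, and in Dusp1 and Errfi1, a difference of the size seen in Sgk1 was not detectable.

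Compared without regard to Dex, Klf9 was the 1 member lower by 0.81 or more (the log2 size taken from the study for knockdown) in siArglu1 Veh than in siControl Veh, where 8.77% of all genes were. In the Dex pair 0 members were, beside 5.93% of all genes, with Klf9 at -0.77 and Ddit4 at -0.74. At a size of 0.5, Klf9, Ddit4 and Dusp1 were lower in vehicle (18.7% of all genes) and in Dex (14.2%), and 12.2% of all genes were lower in both pairs, which share no library. The same 3 members had intervals below 0 in vehicle (39.7% of all genes) and in Dex (39.3%). Intervals above 0 were found for Fkbp5 and Sgk1 in vehicle (40.2%), and for these and Tsc22d3 in Dex (39.3%). Ddit4 moved past 0.81 in both pairs when the trend on length was removed, to -0.94 in vehicle and -0.84 in Dex. Tsc22d3 had a ratio of -0.06 in vehicle (-0.13 to 0.02) and 0.10 in Dex (0.03 to 0.16), and the latter was -0.02 with that trend removed. The vehicle pair shares siControl Veh with the Dex pair of siControl, and siArglu1 Veh with that of siArglu1.

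**Figure D4:**
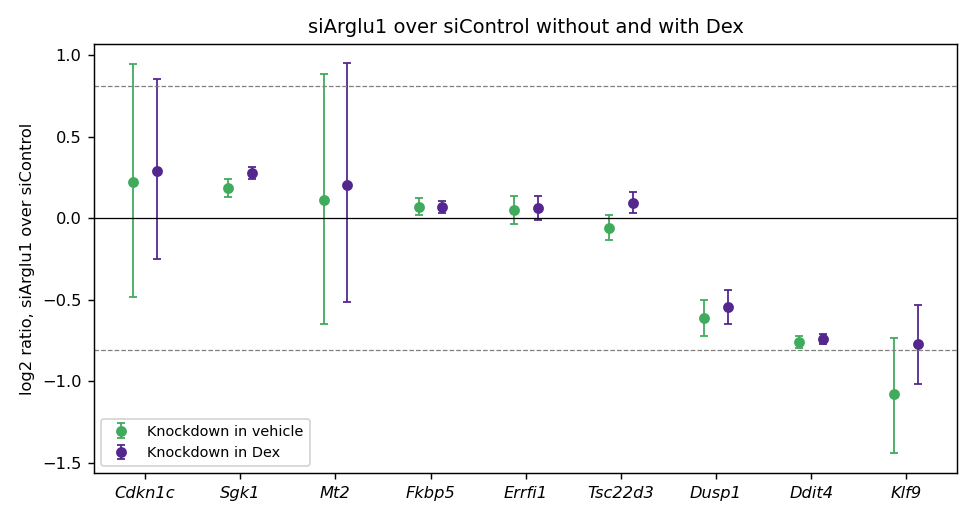
Log2 ratio of siArglu1 over siControl of the 9 members in vehicle and in Dex, with 95% counting intervals and dashed lines at 0.81 and -0.81. Klf9, Ddit4 and Dusp1 are below 0 in both pairs, Sgk1 is above 0 in both, and the bars of Cdkn1c and Mt2 span 0.

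The splicing tables give, per event and library, the percent of transcripts with the exon or site spliced in (PSI). They list 21 events in 8 members, of which 9 in 5 members had a PSI in all 4 libraries and coverage that was scored LOW or higher for 3 or more. None differed by 15 PSI in any pair, where 0.717% of all events did for Dex in siControl, 0.948% for Dex in siArglu1, 1.96% for knockdown in vehicle and 1.52% for knockdown in Dex. The cassette exons of Fkbp5, Dusp1 and Errfi1 that were measured were included at close to 100 PSI throughout, except for an Errfi1 exon of 176 nt that was nearly always skipped. A 240-nt exon of Fkbp5 stood at 99.2 PSI with Veh and 98.6 with Dex in siControl, and 97.8 and 97.6 in siArglu1. An alternative 5′ splice site of Tsc22d3 was used at 97.7, 94.2, 96.4 and 96.2 PSI in the same order. The widest difference was in a 210-nt exon of Sgk1 (mm9 chr10:21648148-21648357), which in siControl had 92.6 PSI with Veh and 90 with Dex, and in both siArglu1 libraries 100. Its coverage was scored OK in siControl. In siArglu1 it was scored N, the lowest score, with Veh and LOW with Dex.

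To set the members beside other genes of the pathway, 50 further genes known to be induced by GR were listed, of which 32 had enough reads. In siControl, 5 of the 32 were higher by 1 or more (0.32% of all genes), and in siArglu1 3 were (0.328%). None was lower by that size (0.144% and 0.064% of all genes). Hif3a, Trim63 and Pnmt reached the minimum of 75 reads only through Dex libraries, so they could enter only as higher genes. The counts are thus in part set by that minimum. The median log2 ratio of the 32 was 0.15 in siControl and 0.16 in siArglu1. Hif3a has only a lower bound in siControl, which lies above the median, so its exact value does not move the median. The medians still include Hif3a, Trim63 and Pnmt, so they too are in part set by the minimum of reads. At a size of 0.5, 8 of the 32 were higher in siControl (1.59% of all genes) and 7 in siArglu1 (2.7%). Per1, a repressor in the circadian clock, had 780 reads with Veh and 3116 with Dex in siControl, and 330 and 2532 in siArglu1. Its log2 ratio was 1.90 in siControl (1.78 to 2.01) and 2.53 in siArglu1 (2.36 to 2.70), above the ratio of each member. Crispld2, a secreted protein, had 447 and 1251 reads in siControl and 294 and 666 in siArglu1, with a ratio of 1.38 and 0.77. Hif3a, an inhibitor of hypoxia signalling, went from 0 reads to 38 in siControl, which is at least 11.8-fold higher against a floor of 3 reads per library, and from 2 to 54 in siArglu1. Trim63, a muscle ubiquitin ligase, had 4 and 54 reads in siControl and 2 and 19 in siArglu1. Pnmt, which makes adrenaline, had 1 and 89 reads in siControl and 1 and 1 in siArglu1.

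The most abundant genes of this list moved less. Rhob, a small GTPase, had log2 ratios of -0.11 in siControl and -0.21 in siArglu1. Glul, glutamine synthetase, had 0.03 and 0.08. Nfkbia, the inhibitor of NF-κB, had 0.33 and 0.25, and Gadd45g, a stress sensor, had -0.08 and -0.11. Tle3, a corepressor, had 0.21 in siControl (0.17 to 0.25) and 0.57 in siArglu1 (0.52 to 0.61).

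**Figure D5:**
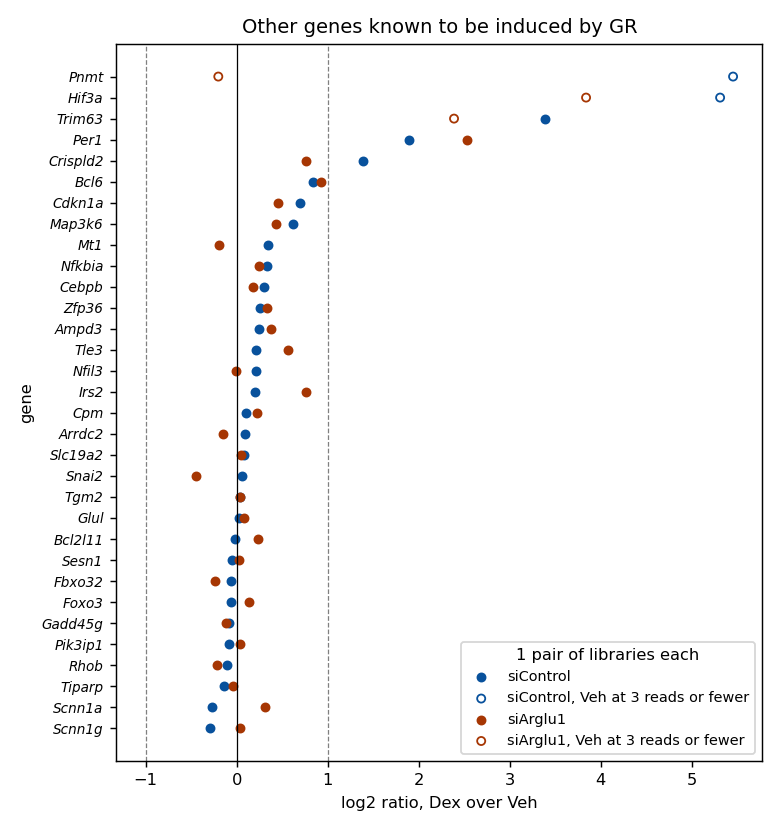
Log2 ratio of Dex over Veh of 32 other genes known to be induced by GR, in siControl and in siArglu1, with dashed lines at 1 and -1. Open circles have 3 reads or fewer in vehicle, so that their position depends on the prior count, and most genes lie within 0.5 of 0.

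Of 16 genes known to be repressed by GR, 6 had enough reads. Only Cxcl10, an interferon-induced chemokine, was lower by 1 or more in siControl (0.144% of all genes). In siArglu1 0 were (0.064%). In siControl Cxcl10 went from 58 reads to 22, which gave a log2 ratio of -1.46 (-2.28 to -0.77). With Arglu1 depleted, 96 reads with Veh and 71 with Dex gave -0.84 (-1.31 to -0.39). Jun, an AP-1 subunit, had ratios of 0.24 and 0.15, and Pomc, the precursor of ACTH, of 0.05 and -0.18. Il6 had -0.17 and -0.32, and Fos had 0.20 and 0.10.

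Among 16 genes of the receptor, its chaperones, steroid metabolism and coregulators, 14 had enough reads and 0 passed 1 in either state. Of all genes, 0.32% were higher and 0.144% lower by that size in siControl, and 0.328% and 0.064% in siArglu1. The chaperones that hold GR were near 0, with Hsp90ab1 at 0.04 in siControl and 0.02 in siArglu1, Hsp90aa1 at -0.02 and 0.01, and Fkbp4, the counterpart of Fkbp5 in the receptor complex, at -0.02 and -0.05. Ptges3 had 0.05 and -0.12, and Stip1 had 0.02 and 0.01. Of the 5 listed metallothionein and metal response genes, 4 had enough reads, and none passed 0.5. Of all genes, 1.59% were higher by 0.5 in siControl and 2.7% in siArglu1. Mt1, the neighbour of Mt2, had a log2 ratio of 0.35 in siControl (0.04 to 0.66) and -0.19 in siArglu1 (-0.53 to 0.14). Mt3, the neural metallothionein, had 0.34 and 0.03, Slc30a1, a zinc exporter, had -0.15 and -0.16, and Mtf1, the metal-sensing factor, had 0.05 and 0.14.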

How the data were processed

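RNA of N2a cells was sequenced by the authors as 1 poly(A)-enriched TruSeq V2 library per group on a HiSeq2500. The submitters' processing notes name Bowtie and the build mm9, without a version. As processed files the authors deposited, per gene and library, a count of reads, not normalized, and the RPKM corrected for mappability (cRPKM). A blank was taken as 0 reads. They also deposited splicing tables with PSI, a percent per event and library, and a coverage score in words. The 2 unnamed columns of the authors' own ratio of Dex over Veh were not used.

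Members and gene lists were chosen with earlier results of these data known. All members were named, and of other lists the genes past the threshold in either Dex pair and the 5 most abundant. Some neural and sympathetic markers are not reported here.

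Counts were scaled by TMM (edgeR 4.0.16, R 4.3.3) and log2 CPM taken with a prior count of 1, for genes with at least 75 reads over the 4 libraries, between 66074574 and 86541444 reads deep. Single libraries allow no test within a pair. Sizes of 1 for Dex and 0.81 for knockdown were used, the latter after the study's legend. Exact 95% intervals (Clopper-Pearson on the share of reads for a ratio, the conditional odds ratio for a difference) cover counting error only. An additive model with edgeR or DESeq2 1.42.0 was an alternative. A splicing event was compared where every library had a PSI and 3 or more were scored LOW or better, with a size of 15 PSI. The scripts were tested on simulated data. Other alternatives were the scaling, cRPKM with a pseudocount of 0.1, prior counts of 0.25 and 5, minimums of 10 and 400 reads, other thresholds, and removal of the trend on mappable length with a lowess (span 0.3, 3 iterations). Promoters are RefSeq's, build GRCm38.p6, and positions of genes are from GENCODE M21, matched by Ensembl identifier.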

Additional observations from a re-analysis of the deposited data

How the results depend on the processing

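Klf9 under knockdown in vehicle was the only value of a member past its threshold, and its sign held under every alternative. No Dex ratio of a member passed its threshold. Below the thresholds, the sign changed for the difference of Fkbp5 (total reads, 0.04, and 2 other settings) and, with the length trend removed, for Tsc22d3 under knockdown in Dex (-0.02), Mt2 with Dex in siArglu1 (0.14) and under knockdown in vehicle (-0.25), and the difference of Errfi1 (-0.0044). Of 270 values of single members under the alternatives that could change them, which leaves out the minimums of reads, 260 stayed within their counting interval and 10 moved, each with the length trend removed. With that trend removed, the median Dex ratio in siArglu1 was 0.45 and the median knockdown ratio in vehicle -0.25. In that setting 2 members were lower by 0.81 or more in the vehicle knockdown pair and 1 in the Dex knockdown pair. The shares of all genes, 8.77% and 5.93%, are from before the removal. These member counts thus have no matching share and cannot be read against all genes. With at least 400 reads, which leaves 7 members, the median knockdown ratio in vehicle was -0.057. At a threshold of 0.5, 3 members were higher after Dex in siControl (1.59% of all genes) and 4 in siArglu1 (2.7%). At that size 3 were lower in the vehicle knockdown pair (18.7%) and 3 in the Dex knockdown pair (14.2%). At 1.5, for which no share of all genes is given, 0 were lower in vehicle. By intervals that exclude 0, 6 members were higher with Dex in siControl (13.5% of all genes) and 6 in siArglu1 (26.2%). In siControl 1 was lower (13.8%). A larger Dex ratio in siArglu1 was found for 2 (23.9%). In the vehicle knockdown pair 2 were higher (40.2%) and 3 lower (39.7%). In the Dex knockdown pair 3 were higher (39.3%) and 3 lower (39.3%). The additive models called 4 members higher with edgeR (0.992% of all genes) and 3 with DESeq2 (0.408%). In alternative settings for splicing, for which no share of all events is given, 1 event reached 10 PSI for knockdown in Dex. It was the 210-nt exon of Sgk1, at 10. Without a coverage minimum, 1 event passed for Dex in siArglu1 and 1 for knockdown in Dex. Each was the same 53-nt exon of Fkbp5, whose coverage was scored N, the lowest score, in all 4 libraries. The cause was not tested.

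No paired analysis was possible because each group is 1 library, with no replicate number to pair; the additive model compares Dex with Veh within knockdown states. Leaving out a library was not run for the same reason. Depth limits Cdkn1c and Mt2, whose intervals span more than a log2 unit, and Zbtb16.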

Other observations

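Genes with a pattern most like that of a member were sought by the distance of centred log2 CPM over the 4 libraries, among genes whose mean cRPKM reached 1, a minimum that was not asked of the member itself and that Klf9 lay under. The rule asked for members past a log2 ratio of 1 in both Dex pairs, which none reached. It was widened to 0.5, a choice made after the values were seen, and then took Fkbp5, Sgk1 and Klf9. Over these 4 libraries the nearest genes to Fkbp5 were Hcrtr1, the receptor of orexin, at a distance of 0.11, Cep120, a centrosomal protein, at 0.11, and Itpk1, an inositol phosphate kinase, at 0.12. The nearest to Sgk1 were Hcrtr1 at 0.13, Cep120 at 0.15 and Fkbp5 at 0.17. The nearest to Klf9 were Tshz2 at 0.13, Lgi1 at 0.24 and Tuba8 at 0.27. Each was lower in siArglu1 and higher with Dex like Klf9, which follows from their choice by distance.

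Of the neural and sympathetic markers, 10 had enough reads. In siControl the interval of the Dex ratio lay above 0 for 5 (13.5% of all genes) and below 0 for 3 (13.8%). In siArglu1 it lay above 0 for 5 (26.2% of all genes) and below 0 for 5 (26.6%). Th, the rate-limiting enzyme of catecholamine synthesis, had 303 reads with Veh and 597 with Dex in siControl, and 124 and 391 in siArglu1. Its log2 ratio of Dex over Veh was 0.88 in siControl (0.68 to 1.08) and 1.24 in siArglu1 (0.95 to 1.55). Chga, chromogranin A of secretory granules, had a ratio of 0.49 (0.47 to 0.52) and 0.38 (0.36 to 0.40). Others were lower or near 0, with Gata3, a transcription factor, at -0.48 (-0.64 to -0.33) and -0.10, Tubb3, a neuronal tubulin, at -0.15 and -0.10, and Stmn2, a regulator of microtubules, at 0.03 and -0.21.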
